A study of Rattus norvegicus with 6 samples.

Results

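The rat major histocompatibility complex, called RT1, holds the genes of the proteins that show peptides to T cells. Rows of the gene table were taken whose symbol began with RT1-, together with 13 further symbols: B2m, Cd74, the peptide transporter and tapasin genes Tap1, Tap2 and Tapbp, the immunoproteasome genes Psmb8, Psmb9 and Psmb10, the regulators Ciita, Nlrc5 and Rfx5, and LOC108348072 and LOC108348139. This gave 44 symbols on 34 of the 43350 gene rows. Of the symbols, 13 belonged to class II, 22 to class I, 6 to peptide processing for class I and 3 to regulators.

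Class II molecules are pairs of an alpha and a beta chain that present peptides cut in the endosomes of antigen-presenting cells such as macrophages and dendritic cells. The invariant chain Cd74 guides them there, and the DM molecule helps to exchange its remnant for a peptide. Class I molecules are a heavy chain paired with B2m, are made by nearly all nucleated cells, and present peptides that the proteasome cuts and the Tap transporter carries into the endoplasmic reticulum. Class II genes are switched on through Ciita, and class I genes largely through Nlrc5, both acting on promoter elements bound by the RFX and NF-Y factors.

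The samples were ipsilateral lumbar 4–6 dorsal root ganglia (DRG), the clusters of sensory neuron cell bodies beside the spinal cord, from male Sprague-Dawley rats, an outbred stock. In the CCI group (n = 3) the left sciatic nerve was loosely ligated (chronic constriction injury), in the sham group (n = 3) it was exposed and not ligated (treatment none in the labels), and both were taken on day 11. The study drew 1 rat for each library, while the labels' protocol also speaks of pooling, and the labels give no age. With outbred rats, differences in RT1 alleles between animals can change how reads align to these genes, and alleles were not examined.

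The libraries held 75423546 to 87615743 counts. FPKM stands for fragments per kilobase of transcript per 1e+06 mapped fragments. The 10 sensory neuron markers summed to 3488 to 3653 FPKM in the CCI libraries and 3913 to 4301 FPKM in the sham libraries. Of the 26663 rows tested, whose FPKM averaged 0.5 or more, 2.57% were called higher and 1.26% lower in the CCI group, where a call needed p below 0.05 and an absolute log2 fold change of at least 0.58 by edgeR's quasi-likelihood test. A Benjamini-Hochberg adjusted p below 0.05 was reached by 0.0938% of the rows. The median log2 fold change of all tested rows was 0.01. The sham 1 library stood apart with summed skeletal muscle markers of 142.5 FPKM, against 4.23 to 20.3 FPKM in the others.

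Class II transcripts were higher in the injured ganglia, while none of the class I rows used for the members was called. A second row with the symbol RT1-A1, on the minus strand, was called higher (log2 fold change 0.62) and is described near the end. Of 9 class II rows tested, 7 were called higher and 0 lower, beside the 2.57% over all rows, and the median log2 fold change was 1.38. With RT1-DMa and LOC108348072 summed, and RT1-DMb and LOC108348139 summed, 6 of 7 were called higher. Of 9 class I rows tested, 0 were called in either direction, and their median was 0.10. Of 6 processing rows 0 were called (median 0.21), and of the 2 regulator rows tested 0 were called (median −0.19). None of the 26 tested rows passed the adjusted limit in edgeR, 7 had an unadjusted p below 0.05, all in class II, and the lowest adjusted p was 0.0712 (edgeR's quasi-likelihood test, adjusted over all tested rows by Benjamini-Hochberg). By DESeq2, 6 of the 26 passed an adjusted p of 0.05 (Cd74, RT1-Da, RT1-Db1, RT1-Ba, RT1-DMb and LOC108348139), beside 3.07% of all rows with an adjusted value, and by limma 0 did. Without the sham 1 library, 6 of 9 class II rows were called and the median was 1.49. In bulk tissue, more cells of a type and more RNA per cell cannot be told apart.

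**Figure D1:**
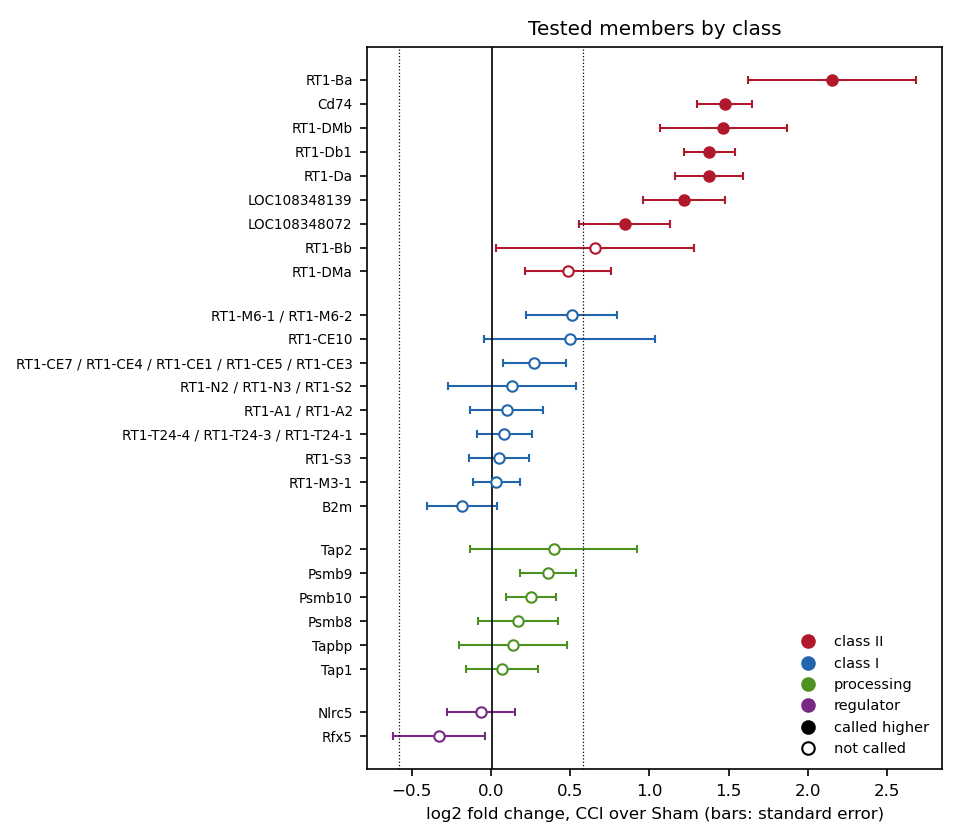
Log2 fold change of CCI over sham (horizontal axis) for each of the 26 tested rows, with standard errors, coloured by class. Filled points were called higher, the solid line is the median of all tested rows and the dotted lines mark the fold limit. Filled points occur in class II alone, from 0.85 for LOC108348072 to 2.15 for RT1-Ba.

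Promoter sequence was available for 36 of the 44 symbols in RefSeq (build GRCr8, 250 bases before to 50 bases after the annotated start). Class II promoters are known for an X box, bound by RFX, followed by a Y box, which is the CCAAT-type site of NF-Y. The windows below show these elements in class II promoters: capitals mark the Y-box core ATTGG and, where it was found, the X-box core AGCAAC, all read 5′ to 3′ on the gene strand. The first line is RT1-Da at chr20:4515324-4515383 (plus strand), then RT1-Db1 at chr20:4560225-4560284 (minus), RT1-Ba at chr20:4576972-4577031 (plus), RT1-Bb at chr20:4604162-4604221 (minus) and RT1-DMa at chr20:4712382-4712441 (minus).
RT1-Da: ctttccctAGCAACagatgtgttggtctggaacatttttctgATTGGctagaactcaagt
RT1-Db1: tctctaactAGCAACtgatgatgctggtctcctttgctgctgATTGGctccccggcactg
RT1-Ba: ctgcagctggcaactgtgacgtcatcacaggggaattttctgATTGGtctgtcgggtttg
RT1-Bb: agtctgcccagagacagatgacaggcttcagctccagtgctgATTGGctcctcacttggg
RT1-DMa: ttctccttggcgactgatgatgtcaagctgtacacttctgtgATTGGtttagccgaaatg

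For comparison, windows of the invariant chain gene and of class I are shown for Cd74 at chr18:56527115-56527174 (plus), B2m at chr3:129549226-129549285 (plus), RT1-A1 at chr20:4907138-4907197 (plus) and RT1-A2 at chr20:4872751-4872810 (plus).
Cd74: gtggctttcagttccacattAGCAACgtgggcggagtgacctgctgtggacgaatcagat
B2m: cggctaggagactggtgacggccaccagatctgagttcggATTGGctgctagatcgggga
RT1-A1: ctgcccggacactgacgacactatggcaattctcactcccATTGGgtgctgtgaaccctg
RT1-A2: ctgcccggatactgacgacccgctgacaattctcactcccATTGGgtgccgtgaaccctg

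The longer form TGATTGG, which contains the ATTGG core, stood on the gene strand of 9 of 10 class II promoters, every one but that of Cd74. It was on the gene strand of 3 of 19 class I promoters and of 3.62% of all 33469 promoters, and on either strand of 9 of the 10, 9 of the 19 and 7.06% of all. AGCAAC was on the gene strand of 7 of 10 class II promoters, 2 of 19 class I promoters and 7.60% of all promoters, or 14.7% on either strand. In RT1-Da, RT1-Db1, RT1-Db2, RT1-DOa, RT1-DOb and RT1-Ha the first bases of both cores lay 31 to 34 bases apart. An AGCAAC followed by ATTGG within 40 bases on the gene strand was in 0 of 19 class I promoters and in 0.227% of all promoters. These matches describe exact letters in the window. Variants of the cores were not searched, so a promoter without AGCAAC may still hold an X box. The members that carried both cores included RT1-Da and RT1-Db1, which were called higher. RT1-Ba and Cd74 were called higher as well, without exact matches to both cores on the gene strand. A link between the cores and the calls was not tested. RT1-DOa, RT1-DOb, RT1-Ha and RT1-Db2 carried both as well and were too low to test.

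**Figure D2:**
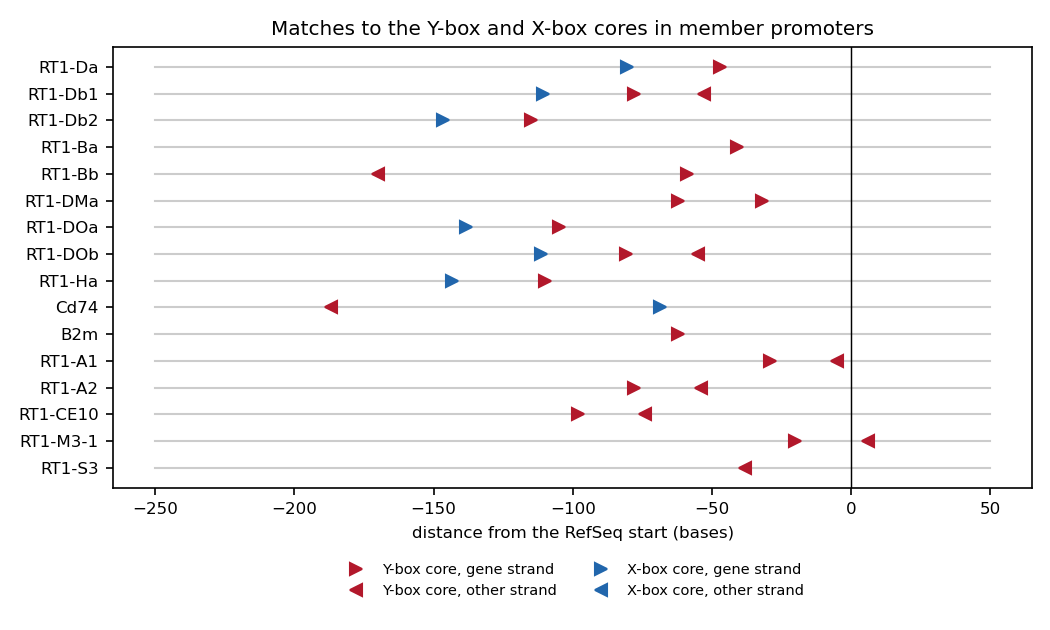
Positions of the Y-box core (red) and X-box core (blue) in 16 member promoters, as distance in bases from the RefSeq start; arrowheads give the strand relative to the gene. The X core precedes the Y core by 31 to 34 bases in 6 class II promoters. RT1-Ba, RT1-Bb and RT1-DMa show the Y core with no exact match to AGCAAC. Cd74 shows the X core with a Y core on the other strand.

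Among the class II genes, Cd74, the invariant chain, was the most abundant per length, with a mean of 72.7 ± 15.2 FPKM (SD, n = 3) in the CCI group and 25.8 ± 3.03 FPKM in the sham group. In counts per 1e+06 counts of the TMM-scaled library (CPM), Cd74 read 125, 123 and 83.6 in CCI 1, 2 and 3, and 43.8, 35.0 and 40.4 in sham 1, 2 and 3. The lowest CCI library was above the highest sham library. The log2 fold change was 1.48 ± 0.17 (SE), with an adjusted p of 0.0712 in edgeR's quasi-likelihood test. Over the 6 fits that each left out 1 library the adjusted p of edgeR's test ranged from 0.0217 to 0.227 and the call held in all 6. Cd74 lies outside the RT1 region, on chromosome 18 (56071478 to 56080849, plus strand, in the coordinates of the gene table).

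RT1-Da and RT1-Db1 encode the alpha and beta chains of the D molecule, the rat counterpart of human HLA-DR. RT1-Da (chromosome 20, 4127644 to 4132616, minus strand) read 44.2, 49.0 and 29.0 CPM in the CCI libraries and 18.4, 14.8 and 13.9 CPM in the sham libraries. RT1-Db1 (4087618 to 4097190, plus strand) read 11.5, 13.9 and 15.4 CPM against 5.96, 5.15 and 4.54 CPM. Neither chain overlapped between the groups. The log2 fold change was 1.38 ± 0.21 for RT1-Da (adjusted p = 0.109) and 1.38 ± 0.16 for RT1-Db1 (adjusted p = 0.0712), both by edgeR's quasi-likelihood test. CCI 3 held the least RT1-Da of the injured libraries and the most RT1-Db1, so that the ratio of RT1-Db1 to RT1-Da in FPKM was 0.414 there and 0.203 to 0.272 in the other 5 libraries. Both calls held in all 6 leave-one-out fits of edgeR, where the adjusted p ranged from 0.0460 to 0.324 for RT1-Da and from 0.0470 to 0.208 for RT1-Db1.

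RT1-Ba and RT1-Bb encode the chains of the B molecule, the counterpart of HLA-DQ. RT1-Ba (4066132 to 4070721, minus strand) read 5.42, 6.80 and 19.8 CPM in the CCI group and 2.73, 1.70 and 2.75 CPM in the sham group. It had the largest change of the tested members, a log2 fold change of 2.15 ± 0.53 (adjusted p = 0.240, edgeR's quasi-likelihood test), and CCI 3 held by far the most. Without CCI 3 the log2 fold change was 1.35, so the size but not the call rested on that library. RT1-Ba per Cd74 was 0.241 in CCI 3 and 0.0440 to 0.0694 in the other 5 libraries (ratio of FPKM). RT1-Bb (4039413 to 4049711, plus strand) read 2.80, 3.09 and 7.02 CPM in the CCI group and 2.30, 0.984 and 4.89 CPM in the sham group. The groups overlapped, with a log2 fold change of 0.66 ± 0.62 (adjusted p = 0.787, edgeR's quasi-likelihood test). The B alpha and beta chains thus gave different calls, and a difference between them was not tested.

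The DM molecule is encoded by RT1-DMa and RT1-DMb, and the table carries a second locus for each: LOC108348072 is described there as DMa and LOC108348139 as DMb. Near-identical copies can share reads, so their separate values are uncertain. RT1-DMb (3945601 to 3952846) read 6.57, 5.26 and 2.38 CPM against 1.95, 1.96 and 1.24 CPM, with no overlap and a log2 fold change of 1.47 ± 0.40 (adjusted p = 0.274, edgeR's quasi-likelihood test). LOC108348139 (5227045 to 5234290) read 3.43, 4.37 and 2.68 CPM against 1.22, 1.44 and 1.84 CPM, with no overlap and a log2 fold change of 1.22 ± 0.26 (adjusted p = 0.186, edgeR's quasi-likelihood test). Both DMb rows therefore gave the same call.

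LOC108348072 (5240975 to 5244386) read 4.0, 4.39 and 2.52 CPM in the CCI group and 1.82, 1.63 and 2.63 CPM in the sham group, where sham 3 exceeded CCI 3. It was called higher with a log2 fold change of 0.85 ± 0.29 (adjusted p = 0.370, edgeR's quasi-likelihood test), but the call was lost without CCI 1 (log2 fold change 0.77), CCI 2 (0.69), sham 1 (0.77) or sham 2 (0.71). RT1-DMa (3935529 to 3938915) read 4.05, 2.56 and 2.55 CPM against 1.97, 1.82 and 2.76 CPM and was not called, with a log2 fold change of 0.48 ± 0.27 (adjusted p = 0.613, edgeR's quasi-likelihood test). The LOC108348072 to RT1-DMa ratio of FPKM was 1.73 in CCI 2 and 0.906 to 0.993 in the other libraries. With the counts of each pair summed, DMa gave a log2 fold change of 0.67 ± 0.25 (adjusted p = 0.406) and DMb 1.36 ± 0.27 (adjusted p = 0.166) in edgeR's quasi-likelihood test, and both were called higher.

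**Figure D3:**
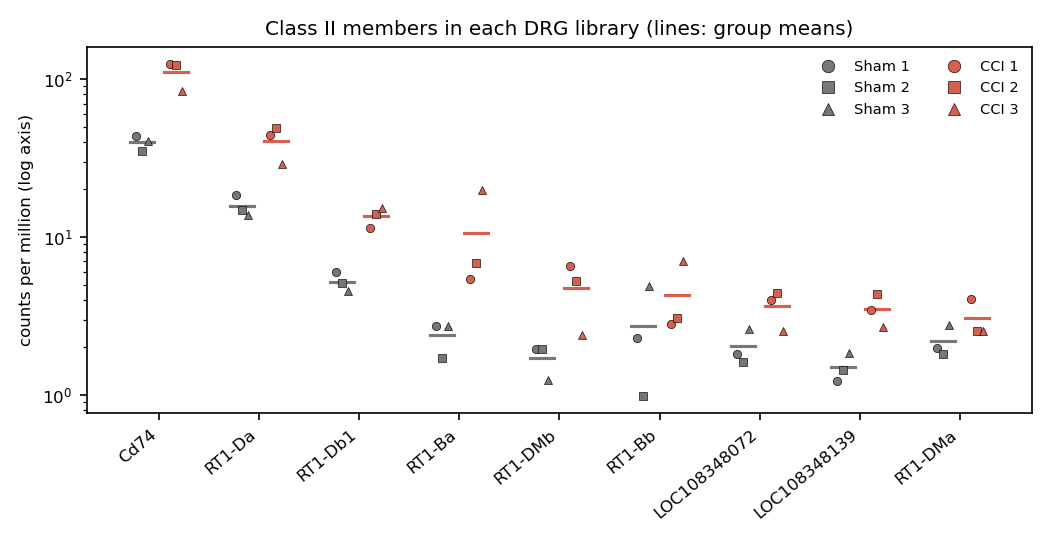
CPM (log axis) of the 9 tested class II members in each library; grey marks sham, red marks CCI, marker shapes give the replicate and lines the group means. The groups do not overlap for Cd74, RT1-Da, RT1-Db1, RT1-Ba, RT1-DMb and LOC108348139, and CCI 3 lies far above its group for RT1-Ba.

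Of the 9 tested class II rows, 6 had every CCI library above every sham library, beside 8.63% of all tested rows. The other 4 class II symbols were below the expression limit. RT1-DOa and RT1-DOb, the chains of the DO molecule that restrains DM, had 11 to 38 and 0 to 55 counts per library. RT1-Ha had 14 counts in sham 2 and 0 in the other 5, and the protein-coding row of RT1-Db2 had 4 counts in each of 2 libraries. A count of 0 allows up to 3 counts, or 0.0342 to 0.0394 CPM in these libraries. Such intervals cover counting error only.

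In class I, B2m, the light chain, had the highest level of any member at 120.0 ± 37.0 FPKM in the CCI group and 134.5 ± 7.52 FPKM in the sham group. It read 155, 272 and 290 CPM in the CCI libraries and 256, 269 and 290 CPM in the sham libraries, so that CCI 1 was low and the others were alike. The log2 fold change was −0.18 ± 0.22 (adjusted p = 0.847, edgeR's quasi-likelihood test), and 0.05 without CCI 1.

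The class I heavy chain rows with the highest mean FPKM were RT1-S3, RT1-M3-1, the joined row of RT1-A1 and RT1-A2, the joined row of RT1-CE1, RT1-CE3, RT1-CE4, RT1-CE5 and RT1-CE7, and the joined row of RT1-T24-1, RT1-T24-3 and RT1-T24-4. Joined rows hold the reads of several neighbouring heavy chain genes, and a change of 1 gene in them cannot be seen apart. RT1-A1 and RT1-A2, the classical heavy chains, read together 15.9, 18.5 and 26.5 CPM in the CCI group and 15.8, 17.5 and 23.6 CPM in the sham group. Their log2 fold change was 0.10 ± 0.23 (adjusted p = 0.929, edgeR's quasi-likelihood test). The joined RT1-CE1 row read 33.2, 40.5 and 56.9 CPM against 38.5, 31.5 and 38.0 CPM, a log2 fold change of 0.27 ± 0.20.

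RT1-S3 read 11.4, 12.4 and 15.3 CPM in the CCI group and 10.3, 11.8 and 15.7 CPM in the sham group. RT1-M3-1, the heavy chain known for presenting formylated peptides, read 10.2, 9.18 and 8.09 CPM against 9.18, 7.63 and 9.96 CPM. The joined RT1-T24-1 row read 20.2, 25.8 and 33.3 CPM against 25.2, 23.8 and 25.7 CPM. All 3 overlapped between the groups, with log2 fold changes of 0.05 ± 0.19, 0.03 ± 0.15 and 0.08 ± 0.18. The other tested heavy chain rows were RT1-N2 joined with RT1-N3 and RT1-S2, RT1-CE10, and RT1-M6-1 joined with RT1-M6-2, with log2 fold changes of 0.13, 0.50 and 0.51. RT1-CE10 ranged from 1.29 to 6.06 CPM over all libraries and was called higher only when sham 3 was left out (log2 fold change 1.17). RT1-M2, RT1-M4 and RT1-M5 had at most 23 counts in any library and were not tested, RT1-M5 with 0 counts in all 6.

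The 6 processing genes had a median between those of the classes, and none was called. None had an unadjusted p below 0.05 in edgeR as fitted here, in DESeq2 or in limma, while Psmb9 did in edgeR with a prior without trend and without sham 2, still under the fold limit. Tap1 and Tap2 form the peptide transporter. Tap1 read 4.71, 6.21 and 7.02 CPM against 5.58, 4.44 and 7.09 CPM (log2 fold change 0.07 ± 0.23). Tap2 read 1.90, 5.41 and 4.44 CPM against 1.3, 3.47 and 4.17 CPM (0.40 ± 0.53), with CCI 1 and sham 1 both low. Tapbp, tapasin, which holds class I to the transporter, shares its row with Zbtb22 and read 48.5, 34.1 and 52.7 CPM against 21.9, 46.3 and 54.6 CPM (0.14 ± 0.34).

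The immunoproteasome subunits replace the standard catalytic subunits under interferon. Psmb9 read 2.46, 2.83 and 2.67 CPM in the CCI group and 1.96, 2.38 and 1.85 CPM in the sham group. The groups did not overlap, but the change missed both limits, at a log2 fold change of 0.36 ± 0.18 (adjusted p = 0.549, edgeR's quasi-likelihood test). Psmb10, on a row joined with Ctrl, read 8.35, 8.43 and 11.7 CPM against 7.71, 7.99 and 8.24 CPM (0.25 ± 0.16). Psmb8 read 1.71, 3.00 and 2.33 CPM against 2.29, 2.21 and 1.76 CPM (0.17 ± 0.25), and these groups overlapped.

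Among the regulators, Ciita, the class II transactivator, lay just under the expression limit with 0.658, 0.736 and 0.432 FPKM in the CCI libraries and 0.315, 0.249 and 0.419 FPKM in the sham libraries. Every CCI library was above every sham library, at 4.0, 4.44 and 2.60 CPM against 1.90, 1.53 and 2.58 CPM. In the fit without an expression limit Ciita had a log2 fold change of 0.88 ± 0.29 (adjusted p = 0.425, edgeR's quasi-likelihood test), where 2.54% of 35757 rows were called higher. Nlrc5 read 4.47, 3.71 and 4.51 CPM against 3.48, 4.13 and 5.64 CPM (−0.06 ± 0.21). Rfx5, a subunit of the RFX factor, read 16.7, 19.8 and 8.52 CPM against 18.2, 19.9 and 18.4 CPM (−0.33 ± 0.29), with CCI 3 low and the others alike.

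**Figure D4:**
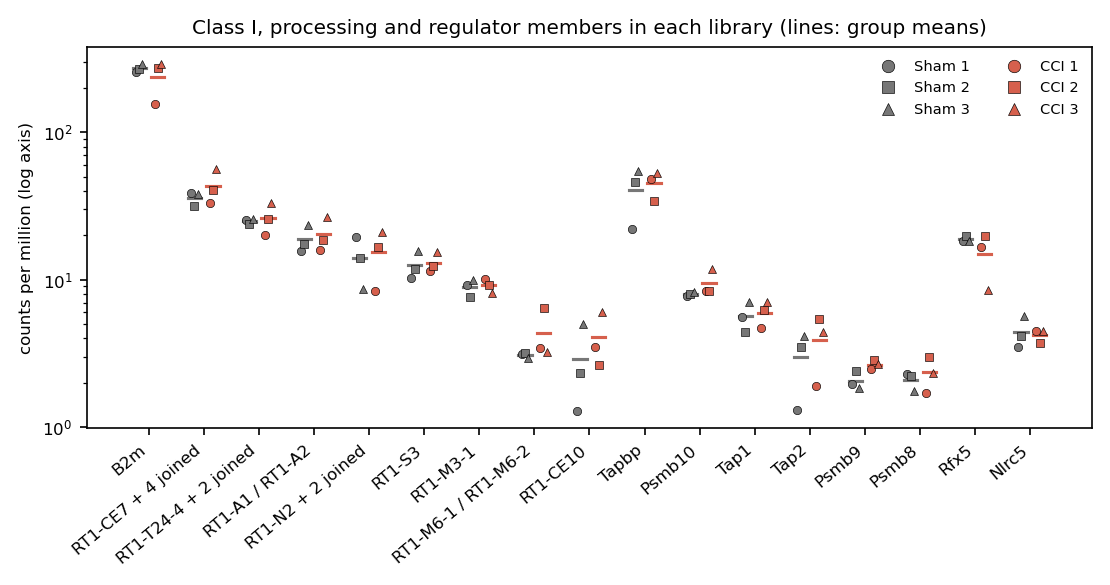
CPM (log axis) of the 17 tested class I, processing and regulator rows in each library, with marks as in the class II plot. The groups overlap for all but RT1-M6-1 with RT1-M6-2, Psmb9 and Psmb10, none of which was called; B2m is low in CCI 1 and Rfx5 in CCI 3.

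Side by side, the class II chains summed to 26.9 ± 3.22 FPKM in the CCI group and 9.38 ± 1.27 FPKM in the sham group. The class I heavy chains summed to 23.4 ± 3.79 and 21.3 ± 2.56 FPKM. The ratio of class II chains to class I heavy chains was 1.18, 1.19 and 1.09 in the CCI libraries and 0.529, 0.426 and 0.378 in the sham libraries. FPKM divides by transcript length, and several heavy chains lie on joined rows, so whether a ratio is above or below 1 depends on the scale. In summed CPM, which does not, the class II chains held 63.8, 72.8 and 71.2 in the CCI libraries against 106, 132 and 170 for the heavy chains, and 29.4, 22.9 and 26.1 against 123, 112 and 130 in the sham libraries. On both scales the ratio was higher in every CCI library than in any sham library. It is a description over the chosen members and carries no test.

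Genes that act beside these members were counted from 5 lists with 36 tested genes. Of these 2 were called higher and 0 lower, beside 2.57% and 1.26% of all tested rows (median log2 fold change 0.03). Both called genes belonged to the endosomal proteases and reductase that prepare peptides for class II. Ctss, cathepsin S, which trims the invariant chain, read 26.2, 19.6 and 19.8 CPM against 9.73, 10.4 and 11.4 CPM, with a log2 fold change of 1.06 ± 0.14 (adjusted p = 0.0789, edgeR's quasi-likelihood test). Ifi30, the lysosomal thiol reductase, read 10.6, 11.7 and 12.3 CPM against 7.61, 6.65 and 7.65 CPM, with a log2 fold change of 0.66 ± 0.11 (adjusted p = 0.119, edgeR's quasi-likelihood test). In the same list of 8, Ctsh had a log2 fold change of 0.29 and Ctsd, the lowest, −0.03.

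None of the 7 endoplasmic reticulum genes was called, and their log2 fold changes ran from −0.45 for the chaperone calnexin (Canx) to 0.18 for the trimming peptidase Erap1, with 0.15 for Tapbpl and 0.01 for Pdia3. None of the 7 proteasome genes was called, from −0.08 for Psmb6 to 0.24 for the assembly factor Pomp, with 0.12 for Psme1 and 0.00 for Psmb7. Of the 6 partners on class II promoters none was called, from −0.26 for Creb1 to 0.38 for the NF-Y subunit Nfyb, with 0.24 for Nfya and −0.06 for Nfyc. Of the 8 tested genes of interferon gamma signalling none was called, from −0.08 for Jak1 to 0.44 for Irf8, with 0.40 for Jak2 and 0.37 for the receptor subunit Ifngr2. Their median was 0.21 and 7 of the 8 were positive. In 3 of them every CCI library was above every sham library, beside 8.63% of all tested rows. The lowest adjusted p of the 8 was 0.296 in edgeR's quasi-likelihood test. The ligand gene Ifng had 0 counts in all 6 libraries. The table's own annotation for antigen processing and presentation named 41 rows with no member symbol, of which 27 were tested, 19 of them with a gene of the pathway or marker lists. It added no call to those given elsewhere in the text: Ctss, Ifi30 and Cd4 higher and Hspa1b lower.

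Most macrophage markers were also higher in the CCI group. Of 13 markers, all tested, 8 were called higher (Fcgr3a, C1qa, C1qb, C1qc, Cx3cr1, Tyrobp, Cd68 and Csf1r), beside 2.57% of all tested rows. The median log2 fold change of the 13 was 0.87. None passed the adjusted limit, and the lowest adjusted p was 0.124 in edgeR's quasi-likelihood test. They summed to 88.7, 73.9 and 59.5 FPKM in the CCI libraries and 37.3, 38.7 and 47.3 FPKM in the sham libraries. Adgre1 and Cd163 had log2 fold changes of 0.02 and 0.00. The sum of class II members over the sum of macrophage markers was 1.3, 1.58 and 1.52 in the CCI libraries and 1.16, 0.891 and 0.834 in the sham libraries. The part of macrophages in the class II change was not tested.

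Markers of other antigen-presenting and T cells were low. Of 9 dendritic cell markers 4 were tested and Itgax was called higher (log2 fold change 0.82, adjusted p = 0.446, edgeR's quasi-likelihood test), while the list summed to 8.20 to 9.88 FPKM in the CCI and 9.61 to 10.5 FPKM in the sham libraries, and Cd209a, Ccr7 and Siglech were at 0 in every sham library. Of 9 T cell markers in the table only Cd4, which rat macrophages also express, reached the expression limit, and it was called higher (0.68). The list, Cd4 included, summed to 7.89 to 10.5 FPKM in the CCI and 5.94 to 6.33 FPKM in the sham libraries. Cd8a was at 0 in all 3 sham libraries and reached 0.25 CPM in CCI 3, Cd3d was at 0 in all 3 CCI libraries, and Cd3e and Cd3g were at most 0.186 CPM in any library. Of 7 B cell markers 0 were tested, and their sum ran from 0.647 to 1.43 FPKM in the CCI and 0.898 to 1.43 FPKM in the sham libraries. The 10 sensory neuron markers had a median log2 fold change of −0.20, with 2 positive and 0 called. Among them the neurofilament gene Nefl passed the adjusted limit with a log2 fold change of −0.57 (adjusted p = 0.0457, edgeR's quasi-likelihood test). Their part in the class II values was not tested.

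**Figure D5:**
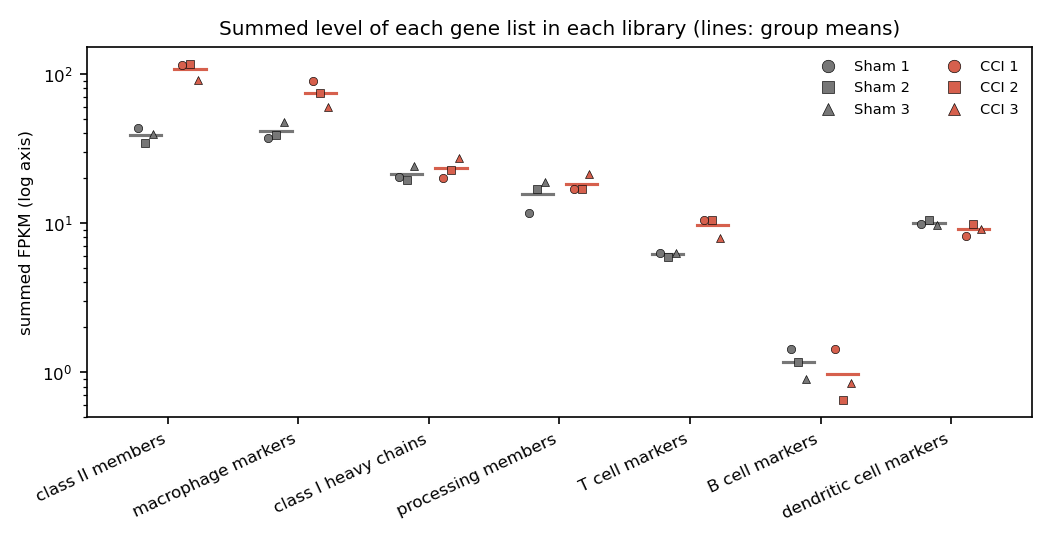
Summed FPKM (log axis) of the class II members, class I heavy chains, processing members and 4 marker lists in each library, with group means as lines. Class II members run from 90.4 to 116.5 FPKM in CCI and 34.5 to 43.4 FPKM in sham, and macrophage markers from 59.5 to 88.7 and 37.3 to 47.3 FPKM, while class I heavy chains overlap between the groups.

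The neighbours of the members were counted as well. In the gene table the region from RT1-Ha to Tapbp (chromosome 20, 3875706 to 5479511) held 69 tested rows without a member symbol. Of these 1 was called higher, the ubiquitin ligase gene Rnf5 (log2 fold change 0.84), and 1 lower, the heat shock gene Hspa1b (−0.82). Over all tested rows 2.57% were called higher and 1.26% lower. The median of the 69 was 0.00.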

How the data were processed

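Total RNA of 6 DRG samples was sequenced from second-strand dUTP libraries. The authors aligned reads with HISAT2 (2.0 in the submitters' processing notes), assembled them with StringTie 1.3.0 and deposited 1 table with a count and an FPKM for each gene row and library. The study names its reference as rat genome V101, and the use of strand in counting is not given in the sources used here. StringTie joined neighbouring genes into 1 row where transcripts overlapped, and FPKM of 0 was written as 0.0001. Columns of the authors' own comparison (fold changes and p-values) were not used. Rows with no gene symbol held 5.37% to 5.72% of counts and stayed in the fit.

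For each symbol the protein-coding row was taken, then the row with the largest count. Deposited counts were tested with edgeR 4.0.16 (TMM scaling, quasi-likelihood test, R 4.3.3) over the 26663 rows whose FPKM averaged 0.5 or more, 3 against 3, with Benjamini-Hochberg adjustment. The limits for a call, p below 0.05 and an absolute log2 fold change of at least 0.58, follow the study. Samples are single libraries, so p-values weigh the group difference against the spread between these libraries. That spread was estimated with the help of all tested rows. DESeq2 1.42.0 and limma 3.58.1 were alternatives. The fit was tested on simulated data. Deviations of same-numbered libraries correlated at −0.05 to −0.01, which gave no sign of pairing by number over all rows. Correlations over all rows cannot exclude pairing in single genes, and the number was also fitted as a block. Promoters came from RefSeq (GRCr8) and no coordinate was converted.

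Members, lists and limits were chosen with earlier results of these data known. Library values were named for called members, for members other than RT1 chains, for tested class II chains and for the 5 highest heavy chain rows; list genes were named if they passed the adjusted limit, otherwise as the 3 highest and the lowest of a pathway list. Marker genes beyond these, and RT1-CE10, Rnf5 and Hspa1b, were named after their values were seen.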

Additional observations from a re-analysis of the deposited data

Results flagged for a closer look

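Besides the rows used for the members, 22 further rows carried a member symbol, of which 21 were tested. Of these 1 was called higher, beside 2.57% of all tested rows, so a single call is near that share. It is a second row with the symbol RT1-A1 on the minus strand (chromosome 20, 5378876 to 5419257), opposite to the RT1-A1 and RT1-A2 row. It held 158, 201 and 192 counts in the CCI libraries and 118, 155 and 102 counts in the sham libraries, a log2 fold change of 0.62 ± 0.25 (adjusted p = 0.441, edgeR's quasi-likelihood test). Since the use of strand in counting is not given, reads of the 2 rows may not be told apart. A further row of RT1-Db2 held 79 to 161 counts and was not called (log2 fold change 0.07).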

How the results depend on the processing

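Each result was recomputed under 18 alternatives and 1 added after the data were seen, the summed DM copies. The class II count stayed between 5 (limma on log2(FPKM + 1)) and 7, and was 6 to 7 without any 1 library. A pseudocount of 1 lowers the fold change of low genes. The class II median log2 fold change moved to 0.84 under limma on log2(FPKM + 1) and to 0.85 without an expression limit, where 4 near-empty genes enter. It ran from 1.22 to 1.49 over the 6 leave-one-out fits. The class I count was 0 in every alternative except without sham replicate 3, giving a leave-one-out range of 0 to 1. The class I median then ran from −0.08 to 0.25. The regulator count became 1 without an expression limit, through Ciita. The processing count and the count of members called lower were 0 in every alternative run. With the replicate number as a block (replicate block) the class II count was 6 and LOC108348072 was lost (log2 fold change 0.84), and no other call of a member changed. Of 677 values of single members under an alternative, 668 kept their side of the limits, 7 lost the call, 2 gained it (RT1-CE10 without sham replicate 3 and RT1-DMa with the DM copies summed) and 0 called values reversed. Of the 668, 25 values of 10 uncalled rows changed sign (B2m, Nlrc5, Psmb8, Tap1, Tapbp, RT1-M3-1, RT1-S3 and the joined rows of RT1-A1, RT1-N2 and RT1-T24-1), to values of at most 0.16 in size. The 7 were LOC108348072 in 6 alternatives and LOC108348139 under limma on log2(FPKM + 1). With 3 libraries a group, the moderate adjusted p-values limit what can be said of any single gene. Members averaging under 0.5 FPKM were not among the tested rows, and the near-empty ones among them could not be compared at this depth. Ciita was compared only in the fit without an expression limit.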
